A study of Mus musculus with 15 samples.

Results

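The 10 genes described here are the D and E cyclins and the cyclin-dependent kinase (CDK) inhibitors that act on them in G1, the phase of the cell cycle before DNA replication. They were taken by name from the 22063 rows of a read count table: Ccnd1, Ccnd2, Ccnd3, Ccne1, Ccne2, Cdkn1b, Cdkn1c, Cdkn2a, Cdkn2b and Cdkn2c. All 10 were found, and all 10 passed the filter on low counts together with 14002 other genes. Primary embryonic fibroblasts of C57Bl/6 mice at passage 2 were electroporated with a plasmid carrying Crxos (CrxOS in the labels), Oboxa1, Oboxa4 or Oboxa7 (OboxA1, OboxA4 and OboxA7 in the labels), or with the empty vector, the control. The 4 homeobox genes belong to the ETCHbox families, whose expression is normally found in the early embryo. Each carried a V5 tag and was driven by a constitutive viral CMV promoter on a plasmid that also expressed a GFP, and in every group, controls included, GFP-positive cells were sorted 48 h after electroporation. RNA was sequenced from 3 libraries for each of the 5 groups, and no source used here says whether those libraries came from separate cultures, so p-values measure only the spread between these libraries.

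Cyclins are regulatory subunits that switch on cyclin-dependent kinases. In G1, the D cyclins activate CDK4 and CDK6 and the E cyclins activate CDK2, and both kinds of complex phosphorylate the retinoblastoma protein, which frees E2F transcription factors to switch on genes for DNA replication. INK4 inhibitors bind CDK4 and CDK6, while CIP/KIP inhibitors bind cyclin and CDK complexes more broadly. In cultured fibroblasts the INK4 genes and p19Arf are known for their rise with passage and in senescence.

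The promoters of members whose level differed from the control in a test, or that held one of the rarer motifs searched, are shown here as the sequence context of those genes. The RefSeq-based promoter table (GRCm38.p6, the assembly behind mm10) held entries for 6 of the 10 genes, 250 bases before to 50 bases after the annotated start. Each sequence runs 5′ to 3′ on the strand of its gene, and capitals mark a motif found by letter search on both strands: GGGCGG (GC box), CCAAT, TGACGTCA (a cyclic AMP response element), TTTCCCGC, TTTCGCGC, TTTGGCGC or TTTGCCGC (E2F motif), and TAATCC (a homeodomain motif of the K50 class). In Cdkn2a, GC box and CCAAT letters overlap at the proximal start, which is not printed.
Ccne1, chr7:38107441-38107740, minus strand: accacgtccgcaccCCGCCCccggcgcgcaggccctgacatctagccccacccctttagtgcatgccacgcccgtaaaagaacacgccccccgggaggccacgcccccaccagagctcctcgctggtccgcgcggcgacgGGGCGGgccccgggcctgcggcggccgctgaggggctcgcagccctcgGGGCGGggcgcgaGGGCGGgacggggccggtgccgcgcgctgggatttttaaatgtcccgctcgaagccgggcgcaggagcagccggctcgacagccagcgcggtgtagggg
Cdkn1b, chr6:134920151-134920450, plus strand: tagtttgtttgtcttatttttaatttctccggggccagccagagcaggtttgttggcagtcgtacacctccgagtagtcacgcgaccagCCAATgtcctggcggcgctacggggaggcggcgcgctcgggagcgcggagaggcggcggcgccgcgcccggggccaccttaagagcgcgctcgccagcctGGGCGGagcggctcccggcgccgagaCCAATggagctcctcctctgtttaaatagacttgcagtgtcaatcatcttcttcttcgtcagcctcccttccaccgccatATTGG
Cdkn2c, chr4:109666707-109667006, minus strand: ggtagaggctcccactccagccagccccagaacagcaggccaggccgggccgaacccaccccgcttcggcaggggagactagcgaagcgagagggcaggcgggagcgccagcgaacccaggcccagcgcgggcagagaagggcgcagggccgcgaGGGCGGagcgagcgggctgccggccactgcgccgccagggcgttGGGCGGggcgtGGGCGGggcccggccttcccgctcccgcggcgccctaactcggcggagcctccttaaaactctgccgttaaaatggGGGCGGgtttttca
Cdkn2a, distal start, chr4:89294570-89294869, minus strand: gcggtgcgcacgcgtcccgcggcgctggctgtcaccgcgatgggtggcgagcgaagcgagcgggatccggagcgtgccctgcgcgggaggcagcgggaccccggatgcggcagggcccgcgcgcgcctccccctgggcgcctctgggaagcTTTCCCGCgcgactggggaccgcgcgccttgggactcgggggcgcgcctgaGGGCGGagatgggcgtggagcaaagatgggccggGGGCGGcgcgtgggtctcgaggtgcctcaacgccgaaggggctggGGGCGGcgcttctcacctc
Cdkn2b, chr4:89310983-89311282, minus strand: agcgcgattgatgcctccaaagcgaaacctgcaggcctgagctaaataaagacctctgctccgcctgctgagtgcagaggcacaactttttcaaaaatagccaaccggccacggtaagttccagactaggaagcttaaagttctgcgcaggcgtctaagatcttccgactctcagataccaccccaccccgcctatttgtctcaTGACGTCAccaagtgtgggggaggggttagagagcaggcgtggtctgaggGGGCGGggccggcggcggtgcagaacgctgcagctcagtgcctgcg

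The Ccne1 window held 4 GC boxes, the Cdkn2c window 4 and the Cdkn1b window 1, and GGGCGG occurs in 35.7% of the 32851 promoter windows of the table. Cdkn1b also held 3 CCAAT motifs, which 37.4% of windows contain. The E2F motif occurred at position -99 of the distal Cdkn2a start, counted from the first transcribed base, and in 2.26% of all windows. TGACGTCA occurred at position -46 of Cdkn2b and in 1.79% of all windows. TAATCC was not among the letters of any window of the 6 genes and is in 7.06% of all windows. These matches describe letters only and no binding was measured.

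The 15 libraries held 28440415 to 42778823 counted reads, with a median of 33849761. Reads of the transfected gene were found in its own libraries, 5586 to 12033 for Crxos, 2009 to 5956 for Oboxa1 (row Obox6), 2338 to 3712 for Oboxa4 (row Obox1) and 2227 to 3899 for Oboxa7 (row MmusOboxA7_Gm8053), and were 0 in the controls. Principal component 1 of the other variable genes carried 56.4% of their variance and split the libraries into a set of 5 (Crxos replicates 1, 2 and 3, Oboxa1 replicate 3 and control replicate 1) and a set of 10. No label says what the sets are. The study's methods say that experiments were matched by date, and no source used here gives the date of a library. Since the Crxos libraries are all in the smaller set, Crxos can be compared inside it with 1 control only. Members are therefore given also from a within-set fit, which compares conditions only inside a set. For Oboxa1 this fit weights both sets equally, and the set of 5 holds 1 Oboxa1 library and 1 control. Oboxa4 and Oboxa7 are compared in it with control replicates 2 and 3 only. A group with 1 library in a set adds nothing there to the estimate of spread. The 10 fibroblast markers summed to 19680 to 20970 CPM (read counts at a common library total, here without TMM scaling) in controls and to 22120 to 30280 CPM in the other libraries. The other marker sums of this paragraph are unscaled too, and CPM in all later paragraphs is after TMM scaling. Of the macrophage list, Tyrobp had 0 reads in all libraries and Ptprc at most 7, while Csf1r had 26 to 67 and Cd68 105 to 352. Of the endothelial list, Pecam1 had at most 16 reads, while Tek had 14 to 83 and Kdr 257 to 704. The 6 epithelial markers, led by Krt19, summed to 43.3 to 79.4 CPM in controls, 14.9 to 17.7 after Crxos, 16.9 to 43.6 after Oboxa1, 32.1 to 41.1 after Oboxa4 and 46.8 to 59.7 after Oboxa7. The 6 myoblast markers summed to 7.46 to 10.8 CPM in controls, 21.4 to 23.6 in Crxos, 11.4 to 22.6 in Oboxa1, 9.99 to 11.8 in Oboxa4 and 8.30 to 10.1 in Oboxa7 libraries, with Myod1 at no more than 3 reads. The part of these marker levels in the results below was not tested.

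Per kilobase of gene length, the D cyclins were the most abundant of the 10 in control fibroblasts. Ccnd1 had 165 ± 19.3 RPKM (reads per kilobase of gene length at the CPM scale, mean ± SD, n = 3), Ccnd2 121 ± 5.01 and Ccnd3 64.9 ± 1.67 RPKM. Ccne1 followed at 33.9 ± 3.35 RPKM, then Cdkn2b at 28.7 ± 1.34 and Cdkn2a at 26.9 ± 2.30 RPKM, which do not differ beyond their spread. Cdkn1b had 14.8 ± 1.41, Cdkn2c 10.3 ± 0.605 and Cdkn1c 8.63 ± 0.894 RPKM, and Ccne2 was lowest at 4.28 ± 0.269 RPKM. The order placed all 3 D cyclins above every inhibitor among the 10, and Cdkn2b and Cdkn2a above both CIP/KIP genes of the group. Cdkn1a, a CIP/KIP inhibitor outside the 10, had 146.5 ± 10.15 RPKM in controls, a mean between those of Ccnd1 and Ccnd2.

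Each homeobox gene was followed by a lower Ccne2 transcript and a higher Cdkn1c transcript, and Ccnd1 and Ccne1 were each called lower after 3 of the 4. In edgeR's quasi-likelihood test of all 15 libraries, a call needed an adjusted p (Benjamini-Hochberg, over 14012 genes) under 0.05 and a higher level that exceeded the lower by more than 25%, called the fold threshold below. After Crxos, 1 member was called higher (Cdkn1c; 8.38% of all genes tested were called higher) and 3 lower (Ccnd1, Ccne2 and Cdkn2c; 8.4% of all genes). After Oboxa1, 1 was called higher (Cdkn1c; 4.25% of all genes) and 3 lower (Ccnd1, Ccne1 and Ccne2; 3.28%). After Oboxa4, 2 were called higher (Cdkn1b and Cdkn1c; 8.06%) and 3 lower (Ccnd1, Ccne1 and Ccne2; 5.83%). After Oboxa7, 1 was called higher (Cdkn1c; 3.33%) and 2 lower (Ccne1 and Ccne2; 2.34%). A stricter test of change beyond the fold threshold itself (glmTreat) kept 3 of these calls, Ccnd1 after Crxos and Cdkn1c after Oboxa4 and Oboxa7. All 4 comparisons share the same 3 control libraries, so the calls they have in common are not independent of each other. The median log2 fold change of the 10 members was -0.19 after Crxos, 0.07 after Oboxa1, 0.20 after Oboxa4 and 0.15 after Oboxa7, where that of all genes tested was 0.00 in each.

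**Figure D1:**
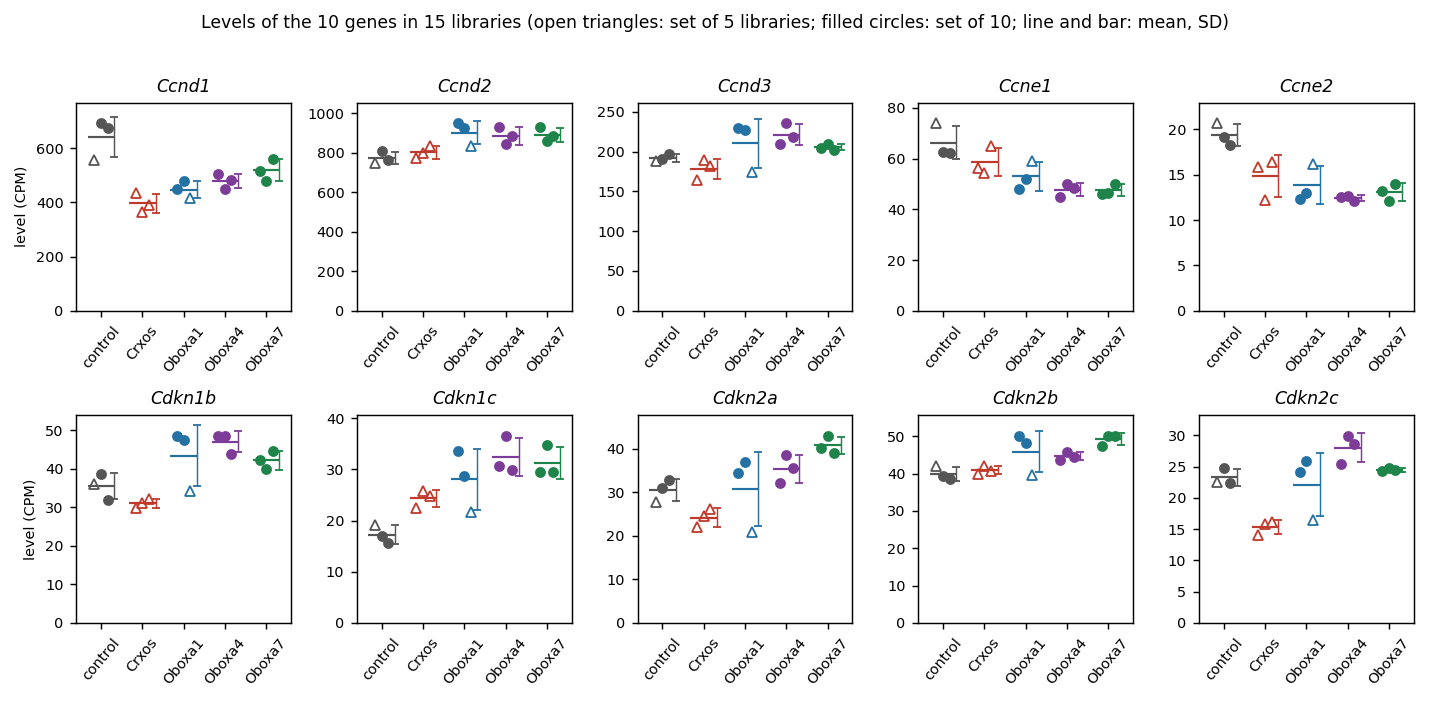
Level of each of the 10 genes in each of the 15 libraries, in CPM on linear axes from 0, by transfected gene. Open triangles are the set of 5 libraries, filled circles the set of 10, horizontal lines group means and bars 1 SD (n = 3). For Ccne2 and Ccne1 the Oboxa4 and Oboxa7 libraries lie below all controls, for Cdkn1c all transfected libraries lie above all controls, and Oboxa1 replicate 3 lies apart from the other Oboxa1 libraries for the inhibitors.

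Ccnd1, cyclin D1 (chr7:144929931-144939831), fell after Crxos, Oboxa1 and Oboxa4. Its level was 555, 691 and 675 CPM in the controls and 434.2, 364.4 and 391.6 CPM after Crxos. It was 448, 478 and 415 CPM after Oboxa1, 504, 450 and 481 CPM after Oboxa4, and 514, 479 and 561 CPM after Oboxa7. The control library of the set of 5 was the lowest control, and Oboxa7 replicate 3 was the one transfected library above it. The log2 fold change was -0.69 ± 0.09 (SE) after Crxos (adjusted p = 0.000443), -0.52 ± 0.09 after Oboxa1 (adjusted p = 0.00461), and -0.42 ± 0.09 after Oboxa4 (adjusted p = 0.00700). After Oboxa7 it was -0.31 ± 0.09 with an adjusted p of 0.0563, which was not called. The within-set fit called Ccnd1 lower in all 4 comparisons, at -0.48 ± 0.09 after Crxos, -0.49 ± 0.07 after Oboxa1, -0.51 ± 0.07 after Oboxa4 and -0.40 ± 0.07 after Oboxa7 (adjusted p = 0.000831). Oboxa7 also reached a call without control replicate 1 (-0.40, adjusted p = 0.0131). In the bulk RNA of sorted cells, fewer cells with a transcript and less of it in each cell cannot be told apart.

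Ccnd2, cyclin D2 (chr6:127125162-127152188), did not follow Ccnd1. The controls had 747, 809 and 763 CPM and the Crxos libraries 771, 795 and 834 CPM. After Oboxa1 it had 948, 922 and 835 CPM, after Oboxa4 929, 842 and 882 CPM, and after Oboxa7 929, 859 and 884 CPM. Every Obox library lay above every control, while Crxos and control libraries overlapped. The log2 fold changes of 0.22 ± 0.06 (Oboxa1, adjusted p = 0.0333), 0.19 ± 0.06 (Oboxa4, adjusted p = 0.0367) and 0.20 ± 0.06 (Oboxa7, adjusted p = 0.0526) were all below the fold threshold, and after Crxos the value was 0.05 with a 95% interval of -0.08 to 0.18. Ccnd3, cyclin D3 (chr17:47505051-47599689), ranged from 164 to 235 CPM over all libraries and was called in none of the 4 comparisons, with log2 fold changes of -0.11 to 0.20.

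The make-up of the D cyclins was described per kilobase in each library. Ccnd1 made up 44.2%, 48.2% and 48.3% of the D cyclin RPKM in the controls. Its mean share was 35.5% ± 2.93 after Crxos, 35.2% ± 1.24 after Oboxa1, 36.6% ± 1.06 after Oboxa4 and 38.9% ± 1.92 after Oboxa7 (SD, n = 3). The ratio of Ccnd2 to Ccnd1 RPKM was 0.821, 0.713 and 0.688 in the controls, the first of these in the set of 5. It ranged from 1.08 to 1.33 after Crxos, 1.18 to 1.29 after Oboxa1, 1.117 to 1.139 after Oboxa4 and 0.960 to 1.1 after Oboxa7. Controls and transfected libraries did not overlap in this ratio, also inside each set, and Ccnd2 exceeded Ccnd1 in all transfected libraries but Oboxa7 replicate 3. The summed D cyclin level was 352 ± 24.4 RPKM in controls and 289 ± 5.38 after Crxos, and it was 297 to 352 RPKM over the Obox libraries. Of these, 8 of 9 lay inside the control range of 324 to 370 RPKM, and Oboxa1 replicate 3, of the set of 5, lay below it. The control of that set had 324 RPKM, the lowest control, and the Crxos libraries had 283 to 294 RPKM. These shares and ratios were described and not tested.

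**Figure D2:**
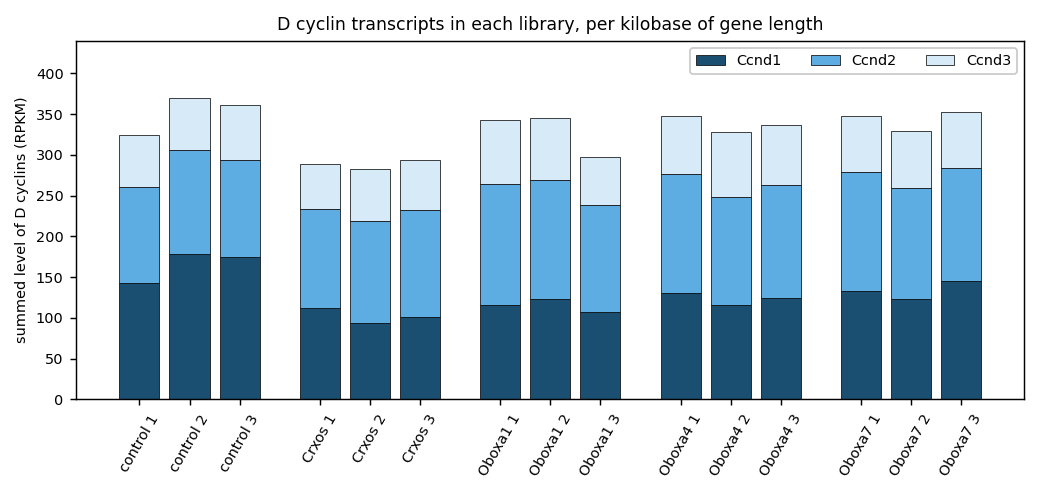
Stacked bars give the summed RPKM of Ccnd1, Ccnd2 and Ccnd3 in each library, from 0. The Ccnd1 segment is the largest in each control and smaller than the Ccnd2 segment in all transfected libraries but Oboxa7 replicate 3.

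Ccne2, cyclin E2 (chr4:11190433-11204779), was called lower after all 4 homeobox genes. It had 20.6, 19.2 and 18.2 CPM in the controls, 15.8, 12.2 and 16.4 after Crxos, 12.3, 13.0 and 16.2 after Oboxa1, 12.5, 12.7 and 12.1 after Oboxa4, and 13.2, 12.05 and 13.97 after Oboxa7. No transfected library reached the lowest control. The log2 fold change was -0.39 ± 0.12 after Crxos (adjusted p = 0.0325), -0.49 ± 0.12 after Oboxa1 (adjusted p = 0.0205), -0.64 ± 0.12 after Oboxa4 (adjusted p = 0.00302) and -0.57 ± 0.12 after Oboxa7 (adjusted p = 0.0128). The within-set fit made all 4 of these calls too, at -0.48, -0.46, -0.59 and -0.51 in the same order. The Crxos call was lost without Crxos replicate 2 (-0.26, adjusted p = 0.139), or without control replicate 1, 2 or 3 (adjusted p = 0.0679, 0.0775 and 0.0585). The Oboxa1 call was lost without Oboxa1 replicate 1 (adjusted p = 0.0972) or 2 (0.0651) or control replicate 2 (0.0501), and the Oboxa7 call without Oboxa7 replicate 1 (0.0556) or 2 (0.0605). The Oboxa4 call held without any single library.

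Ccne1, cyclin E1 (chr7:38097984-38107490), the gene whose promoter heads the sequences above, moved with Ccne2 after the Obox genes. Its controls had 73.9, 62.8 and 62.3 CPM, and the Crxos libraries 56.4, 54.5 and 65.0 CPM. After Oboxa1 it had 48, 51.9 and 59.1 CPM, after Oboxa4 45.0, 49.9 and 48.5 CPM, and after Oboxa7 45.9, 46.6 and 50.2 CPM. Crxos and control libraries overlapped because Crxos replicate 3 exceeded 2 controls, whereas all Obox libraries lay below all controls. The log2 fold change was -0.47 ± 0.09 after Oboxa4 (adjusted p = 0.00349) and -0.48 ± 0.09 after Oboxa7 (adjusted p = 0.00820), and both calls held without any single library. After Oboxa1 it was -0.32 ± 0.09 (adjusted p = 0.0346), a fold of 1.253 at the edge of the threshold. Only 4 of 12 other settings kept this call, the within-set fit among them (-0.32, adjusted p = 0.00199), and 10 of 15 fits without 1 library lost it. Fits without Oboxa1 replicate 1 or 2, Oboxa4 replicate 3, Oboxa7 replicate 1 or 2, or control replicate 1, 2 or 3 had an adjusted p of 0.0510 to 0.147, and those without Oboxa4 replicate 1 or 2 fell under the fold threshold at -0.32. After Crxos the value of -0.18 ± 0.09 was not called (adjusted p = 0.167), and the within-set fit, where control replicate 1 had the highest level of all libraries, called it lower at -0.34 ± 0.09 (adjusted p = 0.0138).

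**Figure D3:**
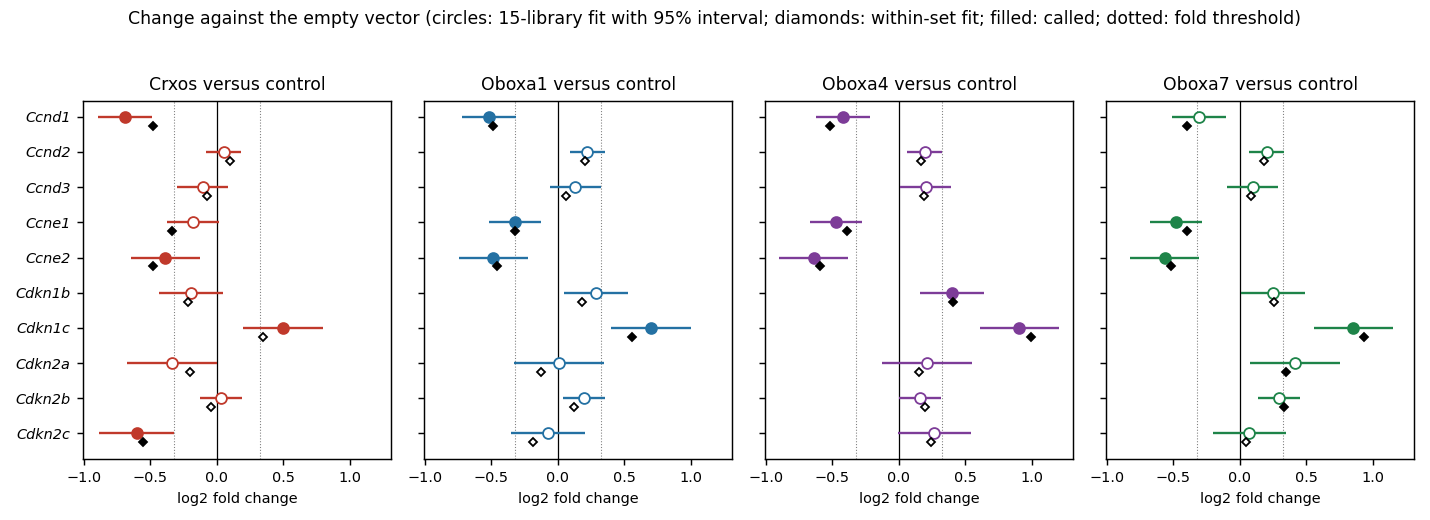
Log2 fold change of each gene against the empty vector, 1 panel for each homeobox gene. Circles are the 15-library fit with 95% intervals, diamonds the within-set fit, filled symbols were called, and dotted lines mark the fold threshold. Ccne2 is called lower and Cdkn1c called higher in all 4 panels by the 15-library fit, and the Cdkn1c diamond after Crxos is open.

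Cdkn1c, which encodes the CIP/KIP inhibitor p57 (chr7:143458339-143461059) and is an imprinted gene expressed from the maternal allele, rose after all 4 homeobox genes. The controls had 19.2, 17.0 and 15.6 CPM. The level was 22.5, 25.7 and 24.9 CPM after Crxos, 33.7, 28.8 and 21.8 after Oboxa1, 30.7, 36.6 and 29.9 after Oboxa4, and 29.5, 34.8 and 29.5 after Oboxa7. The lowest transfected library, Oboxa1 replicate 3, was above the highest control, and both belong to the set of 5. The log2 fold change was 0.91 ± 0.14 after Oboxa4 (adjusted p = 0.00105), 0.85 ± 0.14 after Oboxa7 (adjusted p = 0.00395), 0.70 ± 0.14 after Oboxa1 (adjusted p = 0.00748) and 0.50 ± 0.14 after Crxos (adjusted p = 0.0217). Within sets it was 0.99, 0.94 and 0.56 for the 3 Obox genes in that order, all called, and 0.34 ± 0.13 for Crxos, which was not called (adjusted p = 0.0856). The Crxos call was also lost without Crxos replicate 2 or 3 (adjusted p = 0.0802 and 0.0591) or control replicate 2 or 3 (0.0697 and 0.0952). The 3 Obox calls held without any single library. When only Oboxa1 and control libraries were fitted, no member was called for Oboxa1, with Cdkn1c at 0.71 (adjusted p = 0.119), Ccnd1 at -0.51 (0.0902), Ccne1 at -0.32 (0.193) and Ccne2 at -0.48 (0.134).

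Cdkn1b, which encodes the CIP/KIP inhibitor p27 (chr6:134920401-134925525), rose after Oboxa4. It had 36.0, 38.6 and 31.9 CPM in the controls, 48.5, 48.4 and 43.8 after Oboxa4, 48.4, 47.5 and 34.2 after Oboxa1, 42.1, 39.8 and 44.7 after Oboxa7, and 29.9, 31.1 and 32.1 after Crxos. Oboxa4 and Oboxa7 libraries lay above all controls, and Crxos libraries reached into the control range by 1 library. The Oboxa4 difference was 0.40 ± 0.11 (adjusted p = 0.0201), or 0.41 ± 0.08 within the set of 10 (adjusted p = 0.000478). It was lost without Oboxa4 replicate 1 (adjusted p = 0.0611) or 2 (0.0653) or control replicate 3 (0.0842). The other values were 0.29 (Oboxa1, adjusted p = 0.107), 0.25 (Oboxa7, 0.170) and -0.20 (Crxos, 0.221). Without Oboxa1 replicate 3 the Oboxa1 value was 0.44 and was called (adjusted p = 0.00233).

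The INK4 genes Cdkn2a, Cdkn2b and Cdkn2c encode inhibitors of CDK4 and CDK6, and the Cdkn2a row also counts p19Arf, an activator of p53 whose transcript begins at the distal start shown above. Cdkn2a (chr4:89274473-89294619) and Cdkn2b (chr4:89306289-89311032) are neighbours, and Cdkn2c (chr4:109660876-109666756), which encodes p18, lies elsewhere on the chromosome. Cdkn2c fell after Crxos. It had 22.5, 24.9 and 22.5 CPM in the controls, 14.04, 15.77 and 16.21 after Crxos, 24.1, 25.8 and 16.5 after Oboxa1, 25.5, 30.0 and 28.6 after Oboxa4, and 24.3, 24.8 and 24.4 after Oboxa7. The Crxos libraries lay below all controls, and Oboxa1 replicate 3, the transfected library that shares their set, lay next to them rather than to its own group. The Crxos difference was -0.60 ± 0.13 (adjusted p = 0.00573), or -0.56 ± 0.10 within the set of 5 (adjusted p = 0.00112), and this call held without any single library. The values of the 3 Obox genes, in numerical order, were -0.07, 0.27 and 0.07, with 95% intervals of -0.35 to 0.20, -0.01 to 0.54 and -0.20 to 0.35, and none was called.

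Cdkn2a had 27.7, 31.0 and 32.8 CPM in the controls, 21.9, 24.5 and 26.1 after Crxos, 34.3, 36.9 and 20.9 after Oboxa1, 32.2, 38.5 and 35.5 after Oboxa4, and 40.13, 42.96 and 39.05 after Oboxa7. The Crxos libraries lay below the controls and the Oboxa7 libraries above them, with the other 2 groups overlapping the controls. Neither difference was called in the 15-library fit, at -0.34 ± 0.16 after Crxos (adjusted p = 0.138) and 0.42 ± 0.16 after Oboxa7 (adjusted p = 0.108). Both were called without Oboxa1 replicate 3, the lowest of the 15 libraries for this gene (adjusted p = 0.00950 and 0.00538), and within sets Oboxa7 was called (0.35, adjusted p = 0.00476) and Crxos was not (-0.20, adjusted p = 0.216). Whether p16Ink4a, p19Arf or both account for these levels cannot be read from a row that sums them. Cdkn2b, p15, had 42.0, 39.4 and 38.4 CPM in the controls and 47.29, 49.97 and 50.13 CPM after Oboxa7, without overlap. That difference of 0.30 ± 0.07 had an adjusted p of 0.0249 but a fold of 1.229, under the threshold, and it was called within the set of 10 (0.34, adjusted p = 0.000282) and without control replicate 1 (0.34, adjusted p = 0.0227). Over the remaining groups Cdkn2b was 39.5 to 49.9 CPM, with log2 fold changes of 0.03 after Crxos, 0.20 after Oboxa1 and 0.16 after Oboxa4.

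Read as non-overlap of libraries, 6 of 10 members lay entirely above the controls after Oboxa4 (19.8% of all genes tested did) and 3 entirely below (20.5%). After Oboxa7, 6 lay above (16.8% of all genes) and 2 below (17.2%). After Oboxa1 these counts were 2 (11.3%) and 3 (13.3%), and after Crxos 1 (19.8%) and 4 (21%). The 5 inhibitors together reached 0.221 to 0.243 of the summed RPKM of the 5 cyclins in controls, 0.242 to 0.270 after Crxos, 0.239 to 0.308 after Oboxa1, 0.286 to 0.332 after Oboxa4 and 0.300 to 0.333 after Oboxa7. The Oboxa4 and Oboxa7 libraries were all above the controls, while Crxos and Oboxa1 each had 1 library inside the control range, Crxos replicate 1 and Oboxa1 replicate 3 being at or below control replicate 1. This ratio covers the members only and was not tested. Cdkn1a, which it leaves out, alone had a mean of 146.5 RPKM in controls, where the 5 inhibitors together had 89.29 RPKM. The Cdkn1a mean was 198.8 RPKM after Crxos, 180.5 after Oboxa1, 158.3 after Oboxa4 and 168.4 after Oboxa7.

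Between the Obox genes, 0 members were called. Of all genes, 0.0285% were called in either direction between Oboxa4 and Oboxa1, 0.186% between Oboxa4 and Oboxa7 and 0.121% between Oboxa1 and Oboxa7, so few calls were made by the 15-library fit. The within-set fit called 0.0642%, 3.53% and 1.75% of all genes in the same order, and 0 members. The unadjusted edgeR p was under 0.05 for Cdkn2c between Oboxa4 and Oboxa1 (0.34 higher after Oboxa4, 95% interval 0.07 to 0.62), and for Ccnd1 (-0.21, interval -0.41 to -0.01) and Cdkn2a (-0.41, interval -0.74 to -0.07) between Oboxa1 and Oboxa7. DESeq2 called 0 members in these comparisons as well. The difference of Cdkn1c between Oboxa4 and Oboxa7 was 0.05, with an interval of -0.24 to 0.35.

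The partners of these genes were taken from lists of the pathway chosen by role. Of 8 CDK subunits and activators (among them Cdk2, Cdk4 and Cdk6, the kinases the members bind) 0 were called in any of the 4 comparisons by the 15-library fit, and Cdk4 stood at 364 ± 12.4 CPM in controls and at group means of 340.0 to 353 CPM in transfected cells. Of the 2 remaining INK4 and CIP/KIP genes, Cdkn1a, the p53 target p21, was the more abundant at 146 ± 10.2 RPKM in controls, above all 5 inhibitors of the group, and rose after Crxos (0.44 ± 0.07, adjusted p = 0.00145) from 594 ± 41.2 to 806 ± 71.1 CPM. Cdkn2d, p19Ink4d, was not called by the 15-library fit (-0.30 after Crxos and 0.29 after Oboxa4), while the within-set fit called it lower after Crxos (-0.49, adjusted p = 0.00522) and higher after Oboxa4 (0.39, adjusted p = 0.00221). Cdk6 was called by the within-set fit alone, lower after Oboxa7 (-0.34, adjusted p = 0.00124). Of 13 pocket proteins and E2F factors 0 were higher, and 2, 2, 2 and 1 were lower after Crxos, Oboxa1, Oboxa4 and Oboxa7 (3, 2, 2 and 2 within sets). Those of the 15-library fit were the repressors E2f7 and E2f8, of which E2f8 fell in all 4 comparisons (-0.62, -0.70, -0.64 and -0.66). Of 10 genes of cyclin and p27 turnover, Cks1b, a subunit of the ligase that targets p27, fell after Crxos (-0.35, adjusted p = 0.00923) and Fbxw7, which targets cyclin E, rose after Oboxa7 (0.33, adjusted p = 0.0442), a call that the within-set fit did not make (0.28, under the fold threshold).

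Of 16 regulators of the Ink4 locus, Kdm6b, an H3K27 demethylase, rose in all 4 comparisons (0.65, 0.51, 0.46 and 0.34), and Ezh2, the H3K27 methyltransferase, fell after Crxos (-0.42), Oboxa1 (-0.35) and Oboxa4 (-0.39). Within sets Ezh2 was called after Oboxa4 (-0.45) and fell short of the fold threshold after Crxos (-0.29) and Oboxa1 (-0.31). Jdp2 rose after Crxos, Oboxa1 and Oboxa4 (0.47, 0.41 and 0.44) and Tbx3 after Crxos (0.58, adjusted p = 0.0384), which within sets was 0.16 and not called (adjusted p = 0.301). In the order Crxos, Oboxa1, Oboxa4 and Oboxa7, the counts of the list were 3 higher and 1 lower, 2 and 1, 2 and 1, and 1 and 0. Within sets they were 2 and 0, 4 and 1, and 2 and 0 for the 3 Obox genes. Crxos has 1 control library inside its set, where its values were 0.33 for Dmtf1 and -0.61 for Id1. The 15-library fit called neither Dmtf1 nor Id1 after Crxos. Of 12 imprinted growth genes and neighbours of Cdkn1c, 9 were tested and 3, 1, 4 and 2 were higher and 1, 0, 0 and 0 lower in that order (2, 3, 5 and 2 higher and 0 lower within sets). Peg3 rose in all 4 comparisons (0.39, 0.51, 0.49 and 0.69), of which the Crxos call was lost within sets (0.31, adjusted p = 0.183). Mest rose after Oboxa4 (1.74) and Oboxa7 (1.34), and Grb10 (0.46) and Slc22a18, a neighbour of Cdkn1c (0.82, adjusted p = 0.0268), after Oboxa4. Within sets Mest was called higher after Oboxa4 (1.516), Oboxa7 (1.115) and also Oboxa1 (0.799). Against the 1 control of its set, Crxos had a Mest value of 0.545. Slc22a18 was near the floor, at a mean of 0.712 CPM in controls and 1.256 CPM after Oboxa4. Nap1l4, also a neighbour, went the other way, from 141.9 CPM in controls to 121.6 CPM after Oboxa4, and was called by neither fit. After Crxos, Igf2, a growth factor, rose (0.39, adjusted p = 0.00179), and so it did within sets (0.47). Dlk1 rose (0.70) and Plagl1 fell (-0.91) after Crxos in the 15-library fit, and neither was called within sets (0.29 and -0.01).

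Among the E2F targets of DNA replication, the genes that act after G1 cyclins, lower calls were made in every comparison with the control and no higher calls. Of 15 genes, lower calls numbered 9 for Crxos, 10 for Oboxa1, 11 for Oboxa4 and 6 for Oboxa7, and higher calls 0 (8, 11, 12 and 7 lower within sets), with list medians of -0.33, -0.38, -0.40 and -0.31 on the log2 scale against 0.00 for all genes. Rrm2, a subunit of ribonucleotide reductase, fell by 0.61 after Crxos, 0.49 after Oboxa1 and 0.45 after Oboxa4, and Mcm7, of the replicative helicase, fell by 0.40, 0.45 and 0.36 after Oboxa1, Oboxa4 and Oboxa7. Summed over the list, controls had 1581, 1583 and 1639 CPM and the 12 transfected libraries 1170.0 to 1357 CPM, without overlap. Of 10 mitotic genes, lower calls numbered 10 for Crxos, 2 for Oboxa1, 1 for Oboxa4 and 1 for Oboxa7, with Bub1, a spindle checkpoint kinase, called in each (-0.63, -0.42, -0.33 and -0.33), and the summed level was 1142 to 1183 CPM in controls, 725 to 857 after Crxos and 845 to 1111 after the Obox genes. Within sets, 10, 10, 0 and 0 mitotic genes were called lower, so the Bub1 calls after Oboxa4 and Oboxa7 were lost. The part of a shift in the share of cycling cells in the cyclin and inhibitor values was not tested.

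**Figure D4:**
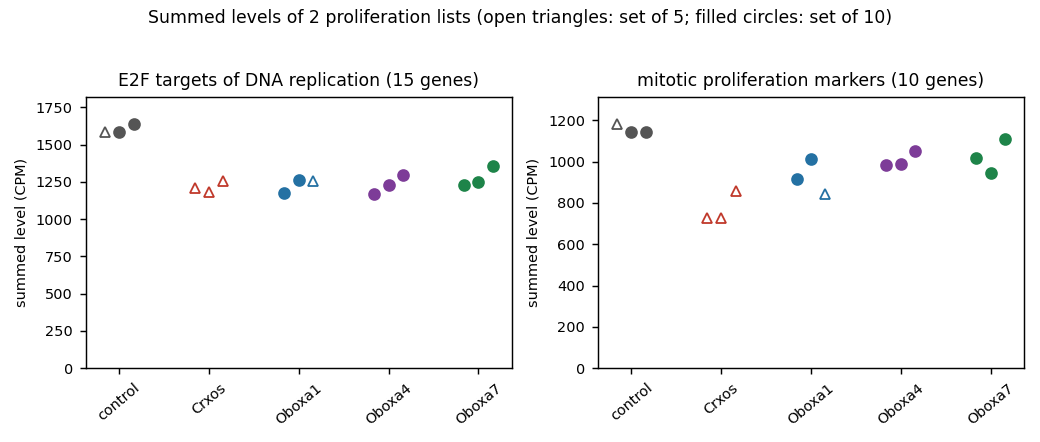
Summed CPM of 15 E2F targets of DNA replication (left) and of 10 mitotic genes (right) in each library, on linear axes from 0. Symbols are as in the plot of the members' levels. All transfected libraries lie below the controls in both lists, and the Crxos libraries lie lowest on average in the mitotic list.

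Across the 15 libraries, which share groups, sets and controls, the members fell into patterns that are given as descriptions. The log2 CPM of Ccne1 and Ccne2 correlated at r = 0.91, and that of Ccne2 and Cdkn1c at r = -0.89. Cdkn2c correlated with Cdkn2a (r = 0.86), Ccnd3 (0.86) and Cdkn1b (0.84), and for each of these 4 genes Oboxa1 replicate 3 was the lowest of its group. Ccnd1 followed none of the other members closely, with r between -0.49 and 0.51. Among 9479 tested genes of at least 10 CPM, those most like Ccnd1 were Itga6 (an integrin subunit, r = 0.99), Tiparp (0.98) and Cgnl1 (0.98). Those most like Cdkn1c were Pbxip1 (0.94), Acta2 (smooth muscle actin, 0.94) and Marcks (0.93), and those most like Ccne2 were Naa50 (0.95), Caprin1 (0.95) and Ccbe1 (0.94). Ccne1 was followed most closely by Rcc1 (0.96) and Cdkn1b by Kctd12 (0.95).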

How the data were processed

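The authors sequenced paired-end reads of poly-A-enriched RNA, used STAR for alignment to GRCm38/mm10, and counted them on NCBI protein-coding genes. The submitters' processing notes name featureCounts and mm10. The deposited values are whole-number counts of reads per gene, not normalized, with a gene length. The sources used here give no settings for strand or multi-mapping reads, so antisense or overlapping genes may share reads. The authors used DESeq2. Here edgeR 4.0.16 (R 4.3.3, limma 3.58.1) fitted a single quasi-likelihood model to all 15 libraries after TMM scaling and filterByExpr (14012 genes). Log2 fold changes use a prior count of 0.125, and log2 CPM for principal components and likeness a prior count of 2. RPKM uses the deposited gene lengths. The smallest chi-square per gene between libraries of a group was 3.84, so no 2 agreed within sampling noise. This value is a mean over genes. For single members the parts of depth and of spread between libraries in the precision were not separated. The table had 0 unused columns and 2 rows sharing a name.

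Groups came from the sample labels. The members, lists and tests were chosen with earlier results of these data known. Named genes were all 10 members, up to 4 called genes with the smallest p in each pathway list and comparison (Cdk2, Cdk4, Cdk6 and Cdkn2d were named beyond this rule after their values were seen), and the 3 genes most correlated with each called member (for Cdkn2c these are not reported here). Alternatives were DESeq2 1.42.0, 2 other scalings, 2 filters, other thresholds, the compared groups alone, a replicate block, 2 treatments of the library sets, and each library left out. The pipeline was tested on simulated counts.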

Additional observations from a re-analysis of the deposited data

How the results depend on the processing

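Counts of called members kept their value within 1.5 times under DESeq2's size factors, upper-quartile scaling, DESeq2's Wald test, no filter, and 1 CPM in 3 libraries, although Ccne1 after Oboxa1 lost its call in each of these (-0.32, just under the fold threshold). The scalings moved the median of all genes by at most 0.0207. A test against the fold threshold itself (glmTreat) left 0 higher and 1 lower after Crxos, 0 and 0 after Oboxa1, 1 and 0 after Oboxa4, and 0 lower after Oboxa7. Only the groups compared gave 0 higher and 0 lower for Oboxa1 and 2 higher for Oboxa7. With no fold threshold, 2 were higher after Oboxa1 and 2 after Oboxa7. The within-set fit gave 0 higher for Crxos and 3 higher for Oboxa7, where the share of all genes called higher was 7.62% against 3.33% in the 15-library fit. A fit of the set of 10 alone, chosen after seeing the data, gave 3 higher for Oboxa1 (Cdkn1b, Cdkn1c and Cdkn2b) and 3 higher for Oboxa7. Leaving out 1 library in turn gave 0 to 1 higher and 2 to 4 lower for Crxos, 1 to 2 higher and 1 to 3 lower for Oboxa1, 1 to 2 higher and 3 lower for Oboxa4, and 1 to 2 higher and 1 to 3 lower for Oboxa7. The cause of these shifts in count was not tested. Beside the within-set share after Oboxa7, the share of all genes called under these settings is not reported here. These counts therefore describe the fits and are no result about the members. No called fold change turned its direction under these alternatives, and 0 members were called between Obox genes in each. Same-numbered libraries deviated together at a median r of 4.55e-05 over 30 pairs, with 3 pairs over 0.1, and differently numbered ones at 0.0176. Of 15 libraries, 8 correlated best with their own number. These deviations also carry the split into 2 sets, so they do not decide whether replicate numbers pair the samples. The replicate block left all counts of called members as they were, at 1 higher and 3 lower after Crxos. Groups of 3 are too small for a check of single outlying libraries. With 3 libraries a group, an effect that was not called is not shown to be absent.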
